A study of Mus musculus with 912 samples.

Results

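Dentate gyrus (DG) nuclei that stained for ARC but not for FOS protein were collected from wild-type C57BL6 female mice 4 h or 5 h after a 15 min visit to an unfamiliar environment (NE), and the transcriptomes of the later nuclei were set against those of the earlier ones. The members were the 127 nuclei of these groups with at least 4000 genes above 1 on the log2(TPM+1) scale, of 170 such nuclei sequenced, 552 nuclei in the second set of sorts and 912 in the series. The 4 h group held 68 nuclei of 2 mice, mouse 17 (batch X161121) and mouse 21 (batch X170113). The 5 h group held 59 nuclei of 4 mice, mice 8 and 9 (batch X160512) and mice 22 and 23 (batch X170224). The age labels ran from 7.75 to 9 weeks, with more than one age given for mouse 17 and for mouse 21. Each nucleus was one SmartSeq2 library, and the home cage (HC) was where the mice waited between the NE and dissection. A separate background group, DG FOS- nuclei called HC nuclei below, came from mice that stayed in the HC and had no visit to the NE. No batch label held both times, so time and batch cannot be told apart. The gene tests also took in ARC+FOS- nuclei of other mice, which had a second exposure to the same (A>A) or a different (A>C) environment. Those mice entered the shared estimate of the spread and not the groups compared. The question was which transcripts differ between the later and the earlier ARC+ nuclei, with the mouse as the replicate and the 5 h batches also taken apart.

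DG granule cells are the glutamatergic neurons that carry cortical input into the hippocampus, and only a small share of them fires strongly in any one environment. Strong firing switches on immediate-early genes within minutes. Some of these encode transcription factors such as the FOS, JUN and EGR families, whose transcripts are short-lived, and others encode effectors that act at synapses, such as ARC, which takes part in the removal of AMPA receptors. ARC protein stays in DG neurons for hours after FOS protein is gone, so an ARC+FOS- gate is meant to collect neurons that were active earlier and lack FOS protein at dissection. Because ARC protein chose the nuclei at both times, Arc transcript is read here behind the same protein gate in both groups.

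Nuclei of batch X170224 held fewer genes than those of the other batches. The share of sequenced nuclei with at least 4000 genes was 87.5% (42 of 48) in mouse 17, 100% (26 of 26) in mouse 21, 91.7% (22 of 24) in mouse 8, 87.5% (21 of 24) in mouse 9, 41.7% (10 of 24) in mouse 22 and 25.0% (6 of 24) in mouse 23. Both X170224 mice lay below the other 4, with exact binomial 95% intervals of 22.1% to 63.4% and 9.77% to 46.7% that cover the draw of nuclei only. The means were 93.75% ± 8.84 (SD, n = 2) at 4 h and 61.5% ± 33.2 (SD, n = 4) at 5 h, with p = 0.4 (two-sided exact permutation test over mice, smallest possible p 0.133). At 3000 genes the shares of mice 22 and 23 were 95.8% and 91.7%, so 45 of 48 X170224 nuclei reached 3000 genes and 16 reached 4000. The members had 142290 to 5885908 counts, with medians per mouse of 2806035, 1810352, 381222, 350949, 1776351 and 1555836 in mice 17, 21, 8, 9, 22 and 23.

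**Figure D1:**
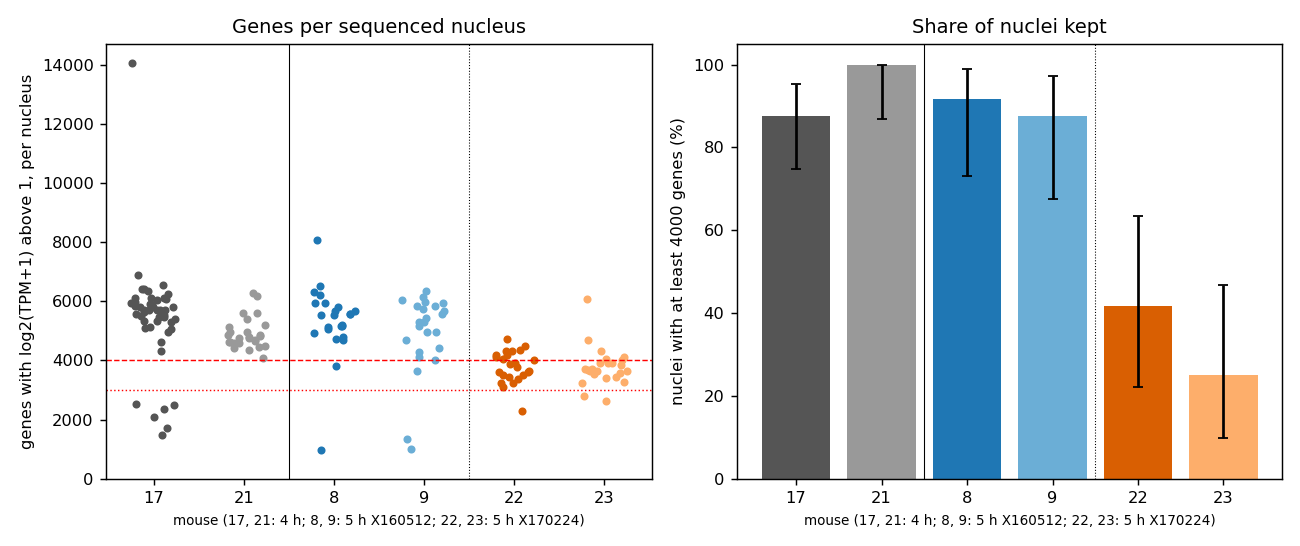
Genes with a log2(TPM+1) above 1 in each sequenced nucleus (left, 1 point per nucleus) and the percent of sequenced nuclei with at least 4000 such genes (right, bars with exact binomial 95% intervals), by mouse. Mice 22 and 23 keep 41.7% and 25.0% of their nuclei and the other 4 mice at least 87.5%.

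Among the members, the mean number of genes above 1 was 5912 and 4918 in the 4 h mice, 5603 and 5326 in mice 8 and 9, and 4278 and 4544 in mice 22 and 23. The groups overlapped, and the 5 h mean was 477 genes below the 4 h mean (p = 0.533, two-sided exact permutation test). With each nucleus thinned to 100000 counts the difference was 101 genes (−101, p = 0.667, the same test). When any expected count above 0 was enough, every 5 h mouse lay below both 4 h mice. The means were then 8527 and 7061 genes at 4 h and 5943 to 6565 at 5 h (p = 0.133, the same test). One nucleus of mouse 17 held 14057 genes, against 6898 in the next highest nucleus of that mouse. Without this nucleus, an alternative chosen after its value was seen, the counts of genes called below were 0 for 5 h against 4 h, 0 for X160512 against 4 h, 390 for X170224 against 4 h and 370 between the 5 h batches. Reads aligned were lower in every 5 h mouse than in both 4 h mice (p = 0.133, two-sided exact permutation test, the smallest possible p). The medians were 41.3% and 44.1% in the 4 h mice, 16.4% and 15.2% in the X160512 mice and 36.1% and 36.8% in the X170224 mice. Malat1, a nuclear long noncoding RNA, took 18.9% and 19.1% of TPM in the 4 h mice, 22.0% and 19.8% in mice 8 and 9, and 37.0% and 29.0% in mice 22 and 23. Its share was higher in every 5 h mouse than in both 4 h mice (p = 0.133, the same test). The part of these 3 measures in the results below was not tested.

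The nuclei carried granule cell transcripts at both times. Prox1, the transcription factor used to sort DG nuclei, had 459 and 581 counts per 1000000 of the TMM-scaled library size (CPM) in the summed libraries of the 4 h mice, 215 and 397 in mice 8 and 9, and 577 and 406 in mice 22 and 23. The 12 granule markers summed to 3126 and 3339 CPM at 4 h and to 2156, 2216, 2396 and 4568 CPM in mice 8, 9, 22 and 23, with 1 marker at 0 in mouse 23 and none at 0 elsewhere. Bcl11b, which encodes the other sort marker CTIP2, was low throughout, at 12.0 and 61.5 CPM at 4 h and 88.0, 31.7, 51.4 and 0.216 CPM in mice 8, 9, 22 and 23. Of the other cell types, the 6 markers of CA1 pyramidal cells summed to 116 and 180 CPM at 4 h and to 4.68, 29.6, 0.209 and 0.108 CPM at 5 h, where 3, 3, 4 and 5 of the 6 were at 0. The 6 microglial markers summed to 42.7 and 22.5 CPM at 4 h and to 3.09, 8.84, 4.53 and 3.36 CPM at 5 h. Interneuron markers (530 to 1374 CPM) and oligodendrocyte markers (82.8 to 380 CPM) overlapped between the times. The CA3 pyramidal markers summed to 115 and 179 CPM at 4 h and to 158, 65.8, 6.83 and 713 CPM in mice 8, 9, 22 and 23, so mouse 23 lay above all others and mouse 22 below them. The astrocyte markers summed to 141 and 77.3 CPM at 4 h and to 153, 217, 379 and 7.69 CPM in the same mice, with mouse 22 highest and mouse 23 lowest. The mossy cell markers summed to 19.4 and 24.2 CPM at 4 h and to 57.5, 34.3, 43.0 and 43.7 CPM in mice 8, 9, 22 and 23, higher in every 5 h mouse. Of 4 mossy markers tested, 2 lay above both 4 h mice in every 5 h mouse, beside 4.03% of all genes tested. None of these markers was called, and the part of other cells' RNA in the results was not tested.

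Arc, Synpo, Jun and other activity genes stood at lower levels in every 5 h mouse than in either 4 h mouse, yet no gene passed the test once the spread between mice was counted. Of 20549 genes tested, 0 (0.0%) reached an adjusted p under 0.05 for 5 h against 4 h (edgeR quasi-likelihood test, Benjamini-Hochberg adjustment, 14 mice sharing one estimate of the spread). At an unadjusted p under 0.05 there were 1042 genes (5.07%), of which 191 were higher (0.929%) and 851 lower (4.14%) at 5 h. The same sums gave 366 calls in DESeq2 (131 higher, 235 lower), and limma on the mean log2(TPM+1) per mouse gave 0 calls with 901 genes at an unadjusted p under 0.05. The median log2 fold change over all genes tested was −0.01, and 48.7% of the genes lay above 0. On simulated counts with the spread of these mice, edgeR found 0.0% of the genes given a log2 change of 2 and 2.5% of those given 4, so the count of 0 says little about changes of that size. In CPM, each of the 4 mice at 5 h lay above both 4 h mice for 828 genes (4.03%) and below both for 2282 genes (11.1%), which is the background for the lists that follow.

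Arc itself (chromosome 15, 74669083 to 74672570, minus strand) was lower at 5 h in every mouse. Its summed counts came to 2206 and 2515 CPM in the 4 h mice, 540 and 644 CPM in mice 8 and 9, and 736 and 297 CPM in mice 22 and 23. The groups did not overlap, and each 5 h mouse lay far below both 4 h mice. The log2 fold change was −2.09 (SE 0.40, 4.26-fold lower), with an adjusted p of 0.764 by edgeR's quasi-likelihood test. The transcript was present in all 68 nuclei at 4 h and in 54 of 59 at 5 h. Within every mouse its log2(TPM+1) ran from under 1 in the lowest nucleus to between 9.50 and 12.06 in the highest. The median over nuclei was 10.01 and 10.05 at 4 h, 8.03 and 8.48 in mice 8 and 9, and 5.23 and 1.82 in mice 22 and 23. In DG FOS- nuclei of HC mice without exposure, the background from a separately normalised table, Arc averaged 0.61 (19 nuclei) and 0.37 (5 nuclei) on the log2(TPM+1) scale in 2 mice. These lay below the means of 8.68, 8.91, 6.83, 6.86, 4.70 and 3.48 in mice 17, 21, 8, 9, 22 and 23. These values were not tested across the tables.

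**Figure D2:**
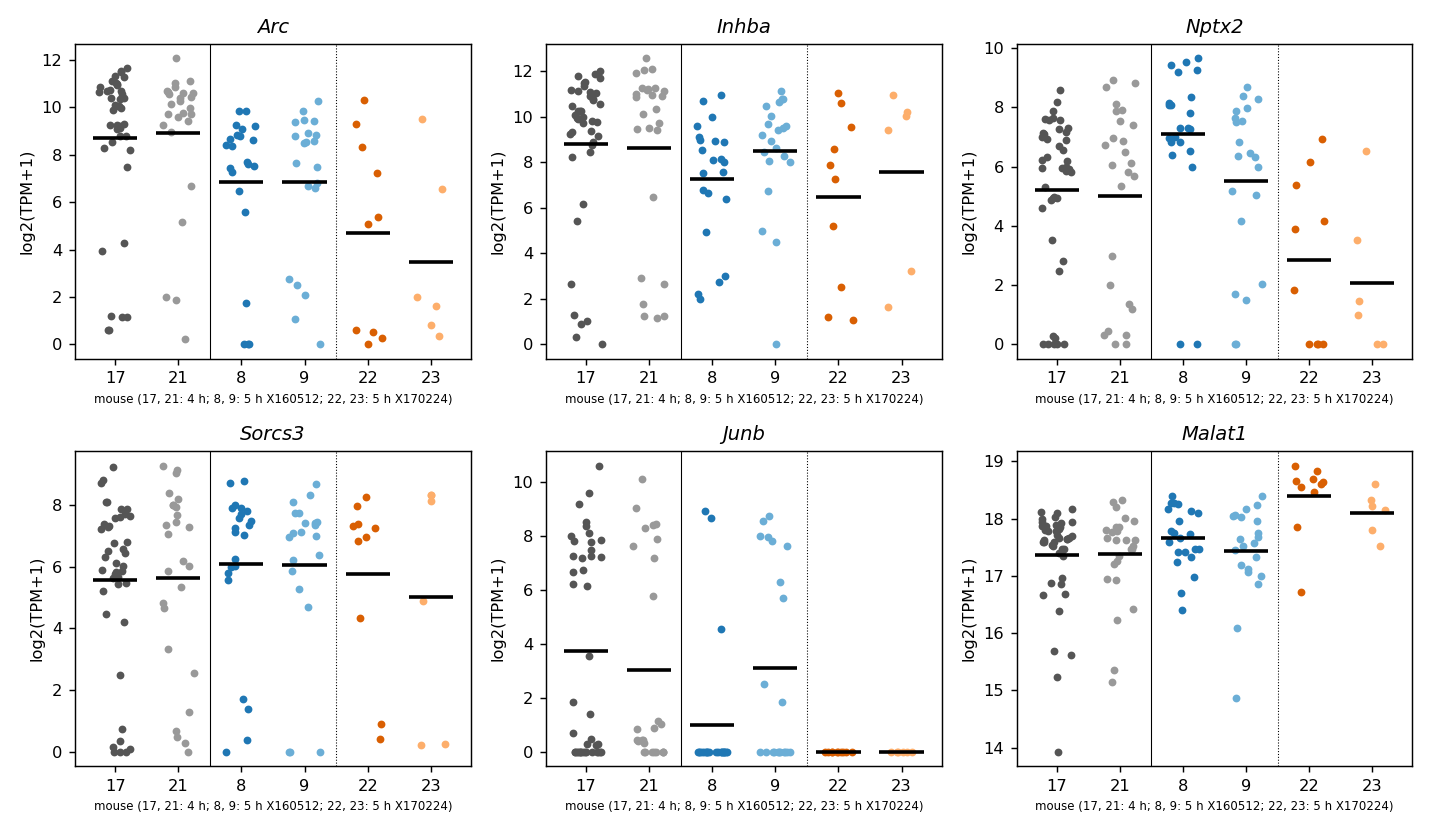
Log2(TPM+1) of 6 genes in each member nucleus (1 point per nucleus, black bar the mean of the mouse), by mouse. Arc has its mean at 8.68 and 8.91 in the 4 h mice and between 3.48 and 6.86 in the 5 h mice, Sorcs3 lies between 5.03 and 6.08 in all 6, and Junb is at 0 in every nucleus of mice 22 and 23.

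Transcription factors of the immediate-early class leaned lower at 5 h. The list of such regulators had 26 members tested, with 0 called (adjusted p under 0.05), a median log2 fold change of −1.35, 17 members below 0 and 9 above, and 7 with every 5 h mouse below both 4 h mice. Jun, a partner of FOS in the AP-1 factor, had 617 and 479 CPM at 4 h, 105 and 88.1 CPM in mice 8 and 9, and 170 and 18.1 CPM in mice 22 and 23. These groups did not overlap (log2 fold change −2.52, SE 0.71, adjusted p = 0.882 by edgeR). Junb, another AP-1 member, had 185 and 130 CPM at 4 h, 26.2 and 74.9 CPM in mice 8 and 9, and 0 in mice 22 and 23. Egr1, a zinc finger factor, had 61.3 and 69.3 CPM at 4 h and 10.8, 10.5, 54.2 and 0.541 CPM in mice 8, 9, 22 and 23, all below the 4 h mice. Fos, the gene whose protein the gate excluded, was high in one 5 h mouse. It had 65.4 and 164 CPM at 4 h, 0 and 7.19 CPM in mice 8 and 9, 805 CPM in mouse 22 and 0.758 CPM in mouse 23, so the 5 h mice lay on both sides of the 4 h mice. In nuclei, Fos was found in 25 of 68 at 4 h, in 1 of 43 of X160512 and in 6 of 16 of X170224. Nr4a2 and Atf3, both activity-induced transcription factors, also overlapped between the times, with Nr4a2 at 32.0 and 49.4 CPM against 50.4, 37.4, 280 and 1.19 CPM.

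Effector genes of activity, which act at synapses or are secreted, did not all move one way between the times. Of 18 tested, 9 lay below both 4 h mice in every 5 h mouse and 1 lay above, with a median log2 fold change of −0.62 and 0 called. Synpo, which encodes the actin-associated protein of the spine apparatus, had 2257 and 1816 CPM at 4 h, 887 and 803 CPM in mice 8 and 9, and 525 and 555 CPM in mice 22 and 23. It was found in 100% of nuclei of every mouse, the groups did not overlap, and the log2 fold change was −1.56 (SE 0.35, adjusted p = 0.882 by edgeR). Inhba, which encodes the activin subunit, had 1301 and 1450 CPM at 4 h and 375, 618, 859 and 982 CPM in mice 8, 9, 22 and 23. Sgk1, a serum- and glucocorticoid-regulated kinase, had 415 and 507 CPM at 4 h and 97.3, 142, 199 and 270 CPM in the same mice. For both genes the 5 h mice all lay below the 4 h mice. Bdnf, a neurotrophin, had 1763 and 2702 CPM at 4 h and 1272, 1167, 2100 and 1756 CPM at 5 h, and its groups overlapped. Nptx2, a secreted pentraxin that clusters AMPA receptors, had 144 and 184 CPM at 4 h, 452 and 188 CPM in mice 8 and 9, and 59.4 and 35.3 CPM in mice 22 and 23, so the batches of 5 h lay on opposite sides. Penk, the precursor of enkephalin, was the member above the 4 h mice in every 5 h mouse, with 17.3 and 0.376 CPM at 4 h and 232, 30.4, 383 and 127 CPM at 5 h.

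Genes the study singled out in late DG nuclei did not all follow Arc. Sorcs3, a sorting receptor of the VPS10 family, had 406 and 599 CPM at 4 h and 424, 478, 534 and 796 CPM in mice 8, 9, 22 and 23, and its groups overlapped (log2 fold change 0.15, SE 0.34, adjusted p = 0.970 by edgeR). Its mean log2(TPM+1) of 5.03 to 6.08 in these mice stood above 0.87 and 0.00 in the 2 HC mice. Blnk, an adaptor protein known from B cells, had 333 and 339 CPM at 4 h and 260, 222, 144 and 277 CPM at 5 h, all lower (log2 fold change −0.57, SE 0.62). Kcnk1, a tandem-pore potassium channel, had 1541 and 2304 CPM at 4 h and 1174, 1040, 1142 and 877 CPM at 5 h. Gabra4, a GABA-A receptor subunit, had 1053 and 1144 CPM at 4 h and 658, 690, 486 and 549 CPM at 5 h, and for both genes every 5 h mouse was below the 4 h mice with adjusted p = 0.882 by edgeR. Kcna4, a fast-inactivating potassium channel, had 436 and 400 CPM at 4 h and 229, 243, 176 and 120 CPM at 5 h. Tnik, a kinase of the postsynaptic density, overlapped, with 363 and 373 CPM against 290, 395, 606 and 434 CPM. Slitrk1, Slitrk3 and Slitrk4, adhesion proteins of synapses, Kcnc4, Dlg2, Acan, Ncan, Pxdn, Tet3, Grm7 and Dgat2l6 overlapped between the times too. So did Kdm6b, which the study instead names among genes raised at 1 h and back at baseline by 4 h.

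**Figure D3:**
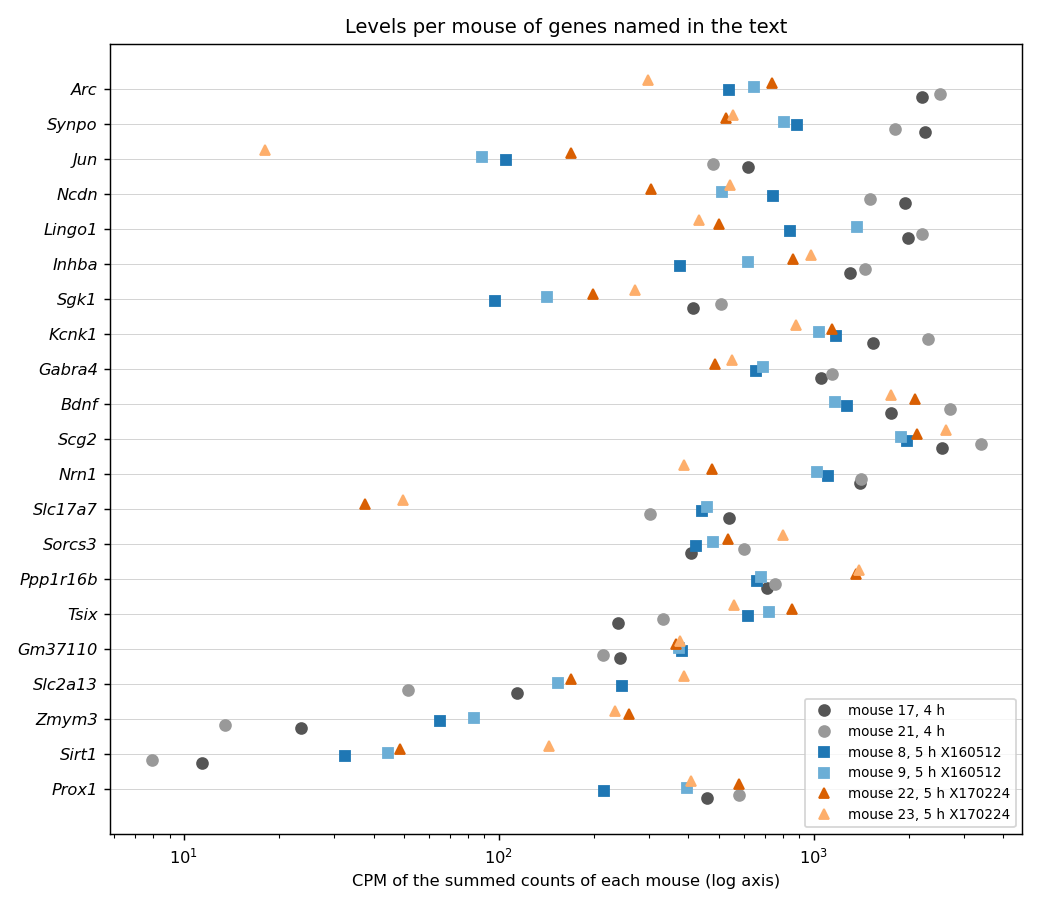
CPM of the summed counts of each mouse (log axis, 1 symbol per mouse) for 21 genes described in the text. For Arc, Synpo, Jun, Ncdn and Lingo1 every 5 h symbol lies left of both 4 h symbols, for Slc17a7 mice 22 and 23 stand apart, and for Tsix, Gm37110, Slc2a13, Zmym3 and Sirt1 the 5 h symbols lie right of the 4 h symbols.

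The genes of smallest p among those lower in every 5 h mouse, none of them called, ranged from well detected to sparse. Ncdn, which encodes neurochondrin, a neuronal protein linked to neurite outgrowth, was well detected, with 1950 and 1511 CPM at 4 h and 742, 512, 305 and 543 CPM at 5 h (log2 fold change −1.72, SE 0.34, adjusted p = 0.764 by edgeR). Smpd3, a neutral sphingomyelinase, had 110 and 86.0 CPM at 4 h and 9.73, 5.54, 6.76 and 5.09 CPM at 5 h. Mrpl9, of the mitochondrial ribosome, had 57.0 and 84.4 CPM at 4 h and 1.18 to 3.09 CPM at 5 h, and Rrp36, which takes part in ribosomal RNA processing, had 25.0 and 60.1 CPM against 0.216 to 3.00 CPM. Mrpl9 was found in 42 of 68 nuclei at 4 h and 25 of 59 at 5 h, and Rrp36 in 33 of 68 and 10 of 59. Sstr3, a somatostatin receptor of neuronal primary cilia (chromosome 15, 78537008 to 78544685, minus strand), was sparse. Its levels were 71.0 and 46.5 CPM at 4 h, in 26 of 68 nuclei, and it had no count in any 5 h member, 0 of 59 nuclei. This allows a share of up to 5.08% if the 59 nuclei are taken as independent draws, which nuclei of 4 mice are not. Against the floor of 3 counts over the group this is 838-fold lower, with an adjusted p of 0.764 by edgeR. The figure covers counting error only and does not bound the difference between mice. At a threshold of 3000 genes it was again in 0 of 45 X160512 and 0 of 45 X170224 nuclei. After thinning to 100000 counts it was in 21.4% and 19.2% of the nuclei of mice 17 and 21 and in none at 5 h. In the HC table its mean was 0.40 and 1.03 on the log2(TPM+1) scale. AW209491, Gm1826, Gm6225 and Serpina3c were likewise found in a minority of 4 h nuclei, and Gm1826 and Serpina3c had 0 counts at 5 h.

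Among genes higher in every 5 h mouse, Tsix and Gm37110 were in 100% of the nuclei. Tsix, the antisense transcript of the X-inactivation gene, had 240 and 331 CPM at 4 h, 617 and 722 CPM in mice 8 and 9, and 852 and 560 CPM in mice 22 and 23 (log2 fold change 1.27, SE 0.41, adjusted p = 0.882 by edgeR). The groups did not overlap. SmartSeq2 libraries do not keep strand, so where Tsix and its sense partner overlap their reads cannot be told apart by strand. The level given for Tsix may therefore hold reads of both. Gm37110, a predicted gene on chromosome 1, had 243 and 214 CPM at 4 h and 365 to 381 CPM at 5 h, the narrowest 5 h range of this group. Sirt1, an NAD-dependent deacetylase, had 11.4 and 7.91 CPM at 4 h and 32.6, 44.4, 48.4 and 144 CPM at 5 h (log2 fold change 2.80, SE 0.88). It was found in 63 of 68 nuclei at 4 h and in 45 of 59 at 5 h, and its mean log2(TPM+1) per mouse, 2.94 ± 0.63 (SD, n = 2) at 4 h and 3.11 ± 0.49 (SD, n = 4) at 5 h, overlapped between the times. Zmym3, a zinc finger protein of histone deacetylase complexes, had 23.5 and 13.5 CPM at 4 h, 64.9 and 83.2 CPM in mice 8 and 9, and 259 and 233 CPM in mice 22 and 23. Slc2a13, a proton myo-inositol transporter, had 114 and 51.4 CPM at 4 h and 246, 154, 170 and 388 CPM at 5 h. Chd7, a chromatin remodeller, and Fhl2, a LIM-domain protein, were high through fewer nuclei, with Chd7 in 13.6% to 50.0% of the nuclei of the 5 h mice. Sfta2 and Olfr1346 rest on 8 counts or fewer in each mouse. None of these 10 genes, Gm26871 included, was called.

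No member of the wider gene groups was called for 5 h against 4 h, and their medians differed between the 5 h batches. Of 16 glycolysis genes, 7 lay below both 4 h mice in every 5 h mouse and 0 above, with a median log2 fold change of −0.75. Pkm, the pyruvate kinase of the brain, had 1157 and 1068 CPM at 4 h and 433, 456, 317 and 301 CPM at 5 h (log2 fold change −1.56, SE 0.35). Of 28 chaperones, 9 were lower in every 5 h mouse and 0 higher (median −0.68), and Stip1, an HSP70 and HSP90 co-chaperone, had 226 and 316 CPM against 88.1, 40.2, 66.0 and 36.3 CPM. Of 52 translation initiation factors, 13 were lower and 1 higher (median −0.82), of 80 cytosolic ribosomal proteins 16 lower and 0 higher (median −0.25), and of 77 nuclear-encoded respiratory chain genes 12 lower and 1 higher (median −0.33). Against 4 h, the medians in X160512 and X170224 were −1.03 and −0.58 for glycolysis genes, −1.12 and −0.60 for chaperones, −0.76 and −0.91 for initiation factors, −0.35 and −0.42 for ribosomal proteins and −0.63 and −0.11 for respiratory chain genes, beside −0.12 and −0.59 for all genes tested. In X170224 only the initiation factors of these 5 groups had a median more than 0.1 below that of all genes, and the respiratory chain median was above it. Of 40 synaptic adhesion genes 2 were lower and 1 higher, of 24 glutamate receptor genes 2 lower and 1 higher, of 26 vesicle and release genes 2 lower and 0 higher, and of 65 potassium channel genes 11 lower and 6 higher. Of 20 histone demethylases 4 were higher and 2 lower. Of 20 circadian clock genes 3 were lower, of 13 glucocorticoid response genes 3, of 12 perineuronal net and matrix genes 2 and of 12 GABA-A receptor genes 3, with 0 higher in each.

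**Figure D4:**
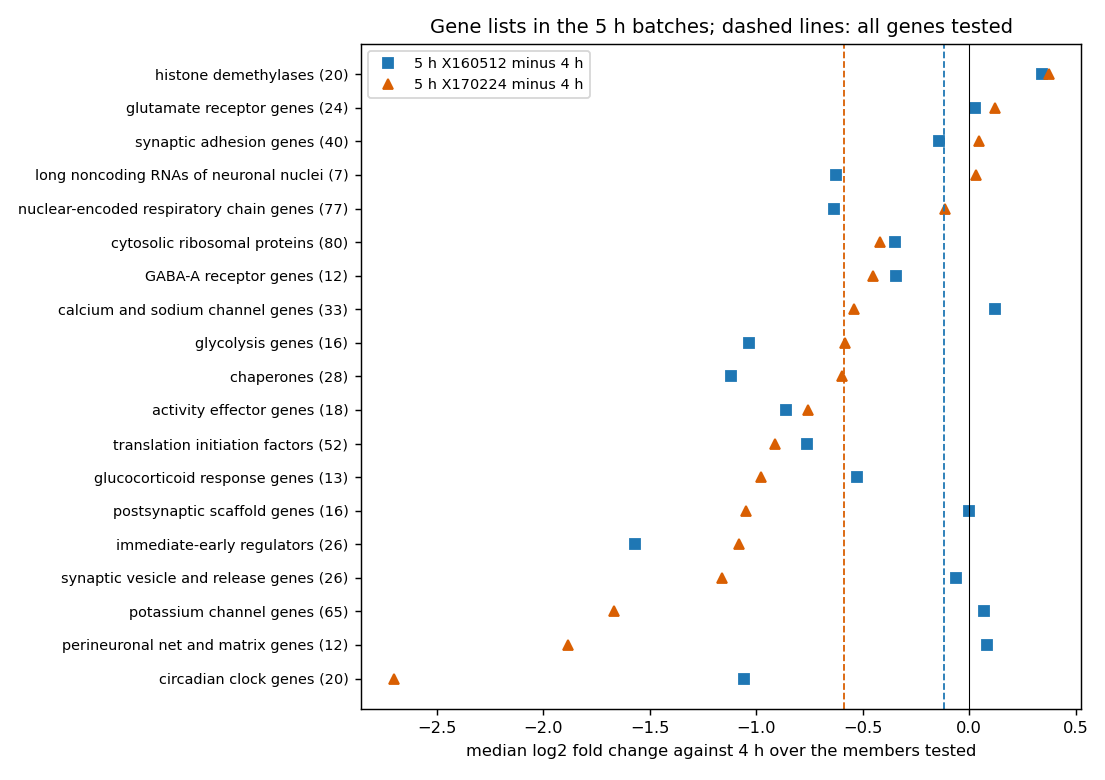
Median log2 fold change against 4 h over the members tested of each gene list (their number in parentheses), for batch X160512 (squares) and batch X170224 (triangles), with dashed lines at the medians of all genes tested, −0.12 and −0.59. Immediate-early regulators sit left of 0 in both batches (−1.57 and −1.08), while potassium channel genes differ (0.07 and −1.67).

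The study's temporal groups were chosen on these nuclei against the HC, so their direction here is fixed in part by the choice. Of the 217 genes that it placed at 4 h only, 74 lay below both 4 h mice in every 5 h mouse and 0 above, with a median log2 fold change of −0.79. Of the 225 placed at 5 h only, 26 lay above and 1 below, and the median was 0.60, at 0.95 in batch X160512 and 0.05 in batch X170224. Of the 129 genes placed at 4 h and 5 h, 25 were lower and 1 higher (median −0.26), of the 107 at all of 1 h, 4 h and 5 h 28 were lower and 1 higher (median −0.46), and of the 104 at 1 h and 4 h 45 were lower and 0 higher (median −0.84). Of 252 genes placed at 1 h only 52 were lower and 2 higher, and of 17 at 1 h and 5 h 1 was lower and 2 higher. Nrp2, a semaphorin receptor, had 477 and 820 CPM at 4 h and 137, 269, 305 and 117 CPM at 5 h. Cnih3, an auxiliary AMPA receptor subunit, had 175 and 218 CPM at 4 h and 327, 466, 426 and 587 CPM at 5 h. Both were without overlap and without a call (adjusted p = 0.882 by edgeR for each).

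Batch X160512 alone differed from 4 h in no gene by the same test, with 0 of 20549 called (0.0%) and 686 (3.34%) at an unadjusted p under 0.05. DESeq2 called 312 genes (98 higher, 214 lower), and limma on mean log2(TPM+1) called 6, all higher. Those 6 are AA465934, Cit, Mybl2, Ppp1r8, 1810009A15Rik and Gm11032, of which Mybl2, Ppp1r8, 1810009A15Rik and Gm11032 are named because of their values. AA465934, a gene on chromosome 11, had 7.54 and 10.8 CPM at 4 h, 211 and 233 CPM in mice 8 and 9, and 1.05 and 0.108 CPM in mice 22 and 23, so the 5 h batches stood at the extremes with the 4 h mice between. It was in 100% of X160512 nuclei, 38.1% and 30.8% of 4 h nuclei, and 10.0% and 16.7% of X170224 nuclei. Cit, the citron kinase, had 5.19 and 0.597 CPM at 4 h and 175, 193, 272 and 79.6 CPM at 5 h, higher in both batches (log2 fold change 5.95, SE 2.02, adjusted p = 0.882 by edgeR for 5 h against 4 h). Ippk, the inositol pentakisphosphate kinase, had 199 and 427 CPM at 4 h, 41.5 and 38.9 CPM in mice 8 and 9, and 120 and 285 CPM in mice 22 and 23. The X170224 mice overlapped the 4 h mice for Ippk and the X160512 mice did not. The X160512 mice were also the shallowest, with 7093253 and 8969367 counts in all against 9953846 to 122283156 in the other mice.

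In batch X170224 the glutamate transporter gene Slc17a7, the spine gene Synpo and the factor Junb were lower than at 4 h, and Ppp1r16b was higher. In all, 400 of 20549 genes were called (1.95%), 4 higher (0.0195%) and 396 lower (1.93%), by edgeR's quasi-likelihood test with Benjamini-Hochberg adjustment. The sums rest on 10 and 6 nuclei, and 164 of the 396 lower genes had 0 counts in both mice. In all, 4798 tested genes had 0 counts in both X170224 mice, against 1842 in both X160512 mice and 544 in both 4 h mice. With 6 nuclei taken from every mouse, an alternative chosen after the values were seen, 0 genes were called (1305 at an unadjusted p under 0.05), and with the 6 mice of 4 h and 5 h alone in the fit 0 were called (2469). With nuclei from 3000 genes up, 70 genes were called (2 higher, 68 lower), 61 of the 396 among them, and the median log2 fold change of the 396 went from −9.44 to −1.93. Leaving out mouse 17 or mouse 21 gave 201 and 205 calls, and leaving out mouse 22 gave 1011. DESeq2 called 3111 genes and limma 245.

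**Figure D5:**
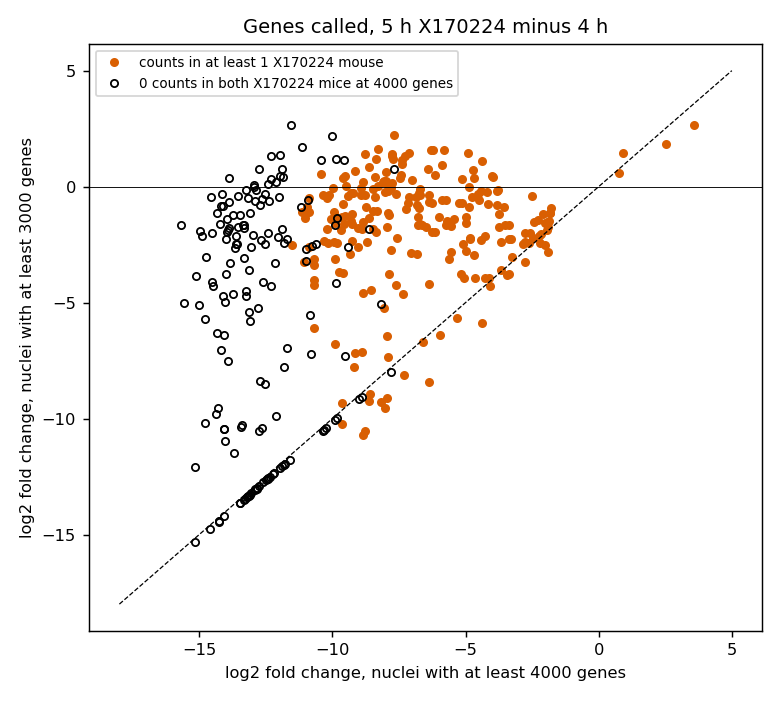
Log2 fold change of the 400 genes called in batch X170224 against 4 h, with nuclei of at least 4000 genes (horizontal) and at least 3000 genes (vertical), where open circles are genes with 0 counts in both X170224 mice at 4000 genes and the dashed line marks equal values. The 396 lower genes have a median of −9.44 on the horizontal and −1.93 on the vertical axis, and 61 of them lie above 0 on the vertical axis.

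Slc17a7, the vesicular glutamate transporter VGLUT1 of excitatory neurons, fell in batch X170224 and kept its call at the lower threshold. It had 539 and 302 CPM at 4 h, 441 and 457 CPM in mice 8 and 9, and 37.6 and 49.5 CPM in mice 22 and 23, far below every other mouse. The log2 fold change against 4 h was −3.27 (SE 0.41, 9.66-fold lower, adjusted p = 0.00339 by edgeR), and at 3000 genes it was −3.03 (adjusted p = 0.0153). It was found in all 68 nuclei at 4 h, all 43 of X160512 and 11 of 16 of X170224, and at 3000 genes in 27 of 45 of X170224. Unc13a, which primes synaptic vesicles, and Vamp2, a vesicle SNARE protein, also fell. This made 3 of 26 vesicle and release genes (11.5%), beside 1.93% of all genes tested that were called lower. Vamp2 was found in 67 of 68 nuclei at 4 h, 31 of 43 of X160512 and 9 of 16 of X170224. Unc13a had 170 and 174 CPM at 4 h, 252 and 222 CPM in mice 8 and 9, and 14.4 and 34.2 CPM in mice 22 and 23 (−2.83, SE 0.47, adjusted p = 0.0121 by edgeR, and 0.0485 at 3000 genes).

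Activity genes were among those that fell in batch X170224. Synpo (−1.91, SE 0.40, adjusted p = 0.0326 by edgeR) was the 1 of 18 effector genes called (5.56%, beside 1.93% of all genes tested), and Arc missed the threshold at −2.19 (SE 0.51, adjusted p = 0.0553). Ncdn (−2.03, SE 0.40, adjusted p = 0.0260) kept its call at 3000 genes with an adjusted p of 0.0316, while Synpo did not (−1.72, adjusted p = 0.150 by edgeR). Lingo1, an inhibitor of myelination and axon growth that neurons express, had 1997 and 2212 CPM at 4 h, 837 and 1375 CPM in mice 8 and 9, and 500 and 432 CPM in mice 22 and 23 (−2.18, SE 0.43, adjusted p = 0.0257 by edgeR, and −2.05 with 0.121 at 3000 genes). Junb and Egr3 were the 2 of 26 immediate-early regulators called (7.69%, beside the same 1.93%). Junb was in 45 of 68 nuclei at 4 h and in 0 of 16 of X170224, which allows a share of up to 18.8%, and was at least 1242-fold lower among the nuclei with at least 4000 genes. This bound did not hold at 3000 genes, where Junb was in 1 of 45 X170224 nuclei with 381 counts and its log2 fold change was −5.01 (adjusted p = 0.418 by edgeR). Egr3, a zinc finger factor, was in 19 of 68 nuclei at 4 h and 0 of 16 of X170224, 120-fold lower against the same floor. Its adjusted p was 0.0262 by edgeR, and 0.0299 at 3000 genes.

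Members of other lists also fell in X170224, where 1.93% of all genes tested were called lower. The shares were 15.4% of glucocorticoid response genes, 12.5% each of scaffold and glycolysis genes and 10.0% of histone demethylases. They were 6.06% of calcium and sodium channel genes and 4.62% of potassium channel genes, each from at most 3 members. Chaperones had 3.57%, and ribosomal proteins, initiation factors and respiratory chain genes had 1.25% to 1.92%, from 1 member each. Kcns2 and Kcnv1 fell among the potassium channel genes. The 2 of 33 calcium and sodium channel genes called were Cacna1h and Scn3b, the 2 of 16 scaffold genes Dlgap3 and Homer3, and the 2 of 16 glycolysis genes Gapdh and Pkm. Of these, Cacna1h and Homer3 had 0 counts in both X170224 mice. The call was lost at 3000 genes for Cacna1h (−0.84, adjusted p = 0.881 by edgeR), Kcns2 (−0.29, 0.978), Dlgap3 (0.268), Homer3 (0.199) and Gapdh (0.327). At 3000 genes Scn3b, an auxiliary sodium channel subunit, was still lower (adjusted p = 0.0433 by edgeR, 313 and 562 CPM at 4 h against 211, 159, 6.90 and 38.4 CPM), and Kcnv1 had turned to a log2 fold change of 0.23. Zbtb16, a zinc finger factor that glucocorticoids induce, had 234 and 206 CPM at 4 h, 97.7 and 49.6 CPM in mice 8 and 9, and 1.46 and 0.108 CPM in mice 22 and 23 (adjusted p = 0.00792 by edgeR, and 0.0282 at 3000 genes). Kdm1a and Kdm2b were called among 20 histone demethylases, Zbtb16 and Ddit4 among 13 glucocorticoid response genes, and 1 each among chaperones (Dnajb1), ribosomal proteins (Rpl11), translation initiation factors (Eif3m) and respiratory chain genes (Cyc1). Kdm1a and Ddit4 had 0 counts in both X170224 mice. Ddit4 was near the floor at 4 h too, with a mean of 0.731 CPM and counts in 4 of 68 nuclei. At 3000 genes the calls of Kdm1a (adjusted p = 0.0535 by edgeR) and Kdm2b (0.519) were lost, and Ddit4 kept its call (0.0383). No circadian, glutamate receptor, GABA-A receptor, adhesion or matrix gene of the lists was called in this comparison.

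The 4 genes that rose in batch X170224 were well counted there, but Hspa12a and Rars2 were missing from part of the nuclei. Ppp1r16b, a regulatory subunit of protein phosphatase 1, had 708 and 753 CPM at 4 h, 662 and 680 CPM in mice 8 and 9, and 1361 and 1389 CPM in mice 22 and 23, and was found in 100% of nuclei of every mouse. The X170224 mice were above all others (0.91, SE 0.19, 1.88-fold higher, adjusted p = 0.0354 by edgeR), and it was the only one of the 4 called again at 3000 genes (1.44, adjusted p = 0.0153). Gm37515, a predicted gene on chromosome 3, had 1314 and 1251 CPM at 4 h, 1610 and 1529 CPM in mice 8 and 9, and 2176 and 2124 CPM in mice 22 and 23 (0.75, SE 0.16, adjusted p = 0.0331). Hspa12a, an atypical HSP70 family member, had 45.1 and 28.4 CPM at 4 h, 77.8 and 27.2 CPM in mice 8 and 9, and 495 and 384 CPM in mice 22 and 23 (adjusted p = 0.0179). Rars2, the mitochondrial arginyl-tRNA synthetase, had 38.4 and 36.7 CPM at 4 h against 46.6, 50.9, 243 and 194 CPM (adjusted p = 0.0185 by edgeR). Hspa12a was found in 23 of 68 nuclei at 4 h, 15 of 43 of X160512 and 11 of 16 of X170224. For Rars2 these were 32 of 68, 15 of 43 and 13 of 16.

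The 5 h batches differed from each other about as often as one of them differed from 4 h. Between X170224 and X160512, 372 of 20549 genes (1.81%) were called by edgeR's quasi-likelihood test, 14 higher (0.0681%) and 358 lower (1.74%) in X170224, and 163 of the lower ones had 0 counts in both X170224 mice. This comparison and that of X170224 with 4 h share the X170224 mice. Lars2, a mitochondrial leucyl-tRNA synthetase, had 369 and 137 CPM at 4 h, 1132 and 869 CPM in mice 8 and 9, and 9.27 and 10.6 CPM in mice 22 and 23. Cap2, an actin regulator, had 171 and 162 CPM at 4 h, 127 and 103 CPM in mice 8 and 9, and 2.30 and 1.41 CPM in mice 22 and 23. Both were lower in X170224 than in X160512 with an adjusted p of 0.00114 by edgeR. Klf13, a Krüppel-like factor, was higher, with 172 and 216 CPM at 4 h, 106 and 63.5 CPM in mice 8 and 9, and 459 and 548 CPM in mice 22 and 23. Srsf2, a splicing factor, had 288 and 448 CPM at 4 h, 123 and 201 CPM in mice 8 and 9, and 964 and 1275 CPM in mice 22 and 23, and for Klf13 and Srsf2 the 4 h mice stood between the batches. At 3000 genes the count between batches was 74, with 6 nuclei per mouse it was 1, Lars2 (adjusted p = 0.0363 by edgeR), and with the 6 mice alone in the fit it was 0. Leaving out mice 17, 21, 8, 9 and 22 gave 238, 236, 186, 182 and 910.

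Genes found in at least 90% of the nuclei of each mouse numbered 622, a filter that also removes genes that were low at 5 h. Of these, 0 were called for 5 h against 4 h and for X160512 against 4 h, and 2 higher and 7 lower for X170224 against 4 h. In CPM, 108 of the 622 (17.4%) lay above both 4 h mice in every 5 h mouse and 63 (10.1%) lay below both. Over all genes tested these shares were 4.03% and 11.1%. The lean to lower levels was thus not seen among the 622, and the filter acts in that direction. Their median log2 fold change was 0.16 for 5 h against 4 h, 0.03 in X160512 and 0.21 in X170224. Arc itself was below 90% of nuclei in mouse 8 and is not among the 622, whereas Synpo, Bdnf and Tsix are.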

How the data were processed

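Mice were the replicates, and nuclei of one mouse were summed. The members and gene lists were chosen with earlier results of these data known. Per the submitters' processing notes the authors used RSEM with Bowtie and mm10. The deposited expected counts are RSEM estimates per gene (42802 genes), all whole numbers, and the deposited log2 values are log2(TPM+1), with a pseudocount of 1 (40221 genes). Nuclei with at least 4000 genes above 1 were kept, and total counts per member ran from 142290 to 5885908. Counts include PCR copies, so intervals and floors (3 counts) cover counting error only.

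Counts were summed per mouse, rounded and fitted with edgeR 4.0.16 in R 4.3.3 (TMM, filterByExpr, glmQLFit, glmQLFTest, Benjamini-Hochberg, threshold 0.05) over the 14 ARC+FOS- mice of the second set, 8 of which had a second exposure. A second fit kept the 5 h batches apart. Mice of one group differed by far more than sampling noise (chi-square per degree of freedom 95.7 to 593), so none was a library deposited again. CPM are counts per 1000000 of the TMM-scaled size of the summed library. The common dispersion was 1.89, well above counting error, and the test was checked on simulated counts. Gene positions are GENCODE vM21 on GRCm38. Alternatives were DESeq2 1.42.0, its size factors, limma 3.58.1 on mean log2(TPM+1), no low-count filter, other mice in the fit, at least 100000 aligned reads, 3000 or 5000 genes, thinning to 100000 counts, equal weight per nucleus, sums per batch and leaving out each mouse, and, chosen after the values were seen, 6 nuclei per mouse and the removal of 1 nucleus with more than 10000 genes. In all, 360 first-set count columns and 333 of 360 first-set log2 columns were not used here, the other 27 being HC nuclei.

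Genes named in the text were the 10 of smallest p in each direction of 5 h against 4 h whose 5 h mice all lay on one side of both 4 h mice, genes the study names for DG nuclei, the sort markers, called members of each list (or up to 4 of smallest p), and the 5 of smallest p in each direction of each other comparison. No mitochondrially encoded gene was in the tables, and the results of 2 genes are not reported here.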

Additional observations from a re-analysis of the deposited data

Results flagged for a closer look

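In 3 of 111 levels tested over the 4 mice at 5 h, 1 mouse stood beyond Dixon's 95% limit, and chance alone passes that limit in about 1 of 20 groups. Fos had 804.7 CPM in mouse 22 and 0 to 7.188 CPM in the other 5 h mice, and Fosb had 75.26 CPM in mouse 22 and 0 in the others. Sirt1 had 143.9 CPM in mouse 23 and 32.57 to 48.36 CPM in the others.

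The 5 h batches differed from each other in 372 genes by edgeR's quasi-likelihood test with Benjamini-Hochberg adjustment, and this is a test of the difference between their contrasts against 4 h. Among genes lower in X170224 than in X160512, the adjusted p was 0.00114 for Glyr1, Cap2, Adrm1, Sbds, Dlgap3, Rab28 and Lars2. It was 0.00411 for Slc17a7, 0.00524 for Cacna1h, 0.00594 for Junb, 0.0076 for Unc13a, 0.00766 for AA465934, 0.0112 for Ddit4, 0.0143 for Kcnv1, 0.0167 for Robo3 and 0.0178 for Zbtb16. It was 0.0238 for Kcns2, 0.0247 for Sema3e, 0.0303 for Kdm1a and 0.0354 for Egr3. Among genes higher in X170224 it was 0.0076 for Klf13, 0.0125 for Fam84a, 0.0202 for Srsf2, 0.0232 for Ppp1r16b, 0.0283 for Arglu1, 0.0339 for Scn2b, 0.0341 for Hspa12a and 0.038 for Rars2. X170224 had 16 member nuclei and X160512 had 43.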

How the results depend on the processing

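No paired analysis was possible because no mouse and no batch gave nuclei of both times. The count of 0 for 5 h against 4 h became 366 in DESeq2 and was 0 to 1 when each mouse was left out (without mouse 8, Men1 was lower with an adjusted p of 0.0494 by edgeR, a gene named for this value), and it was 0 in the other settings. For X160512 against 4 h, DESeq2 gave 312 and limma 6, and leaving out each mouse gave 0. For X170224 against 4 h (400), DESeq2 gave 3111, limma 245, the threshold of 3000 genes 70, 6 nuclei per mouse 0 and the 6 mice alone 0, and leaving out each mouse gave 201 to 1011. Between the 5 h batches (372), DESeq2 gave 2953, 3000 genes 74, 6 nuclei per mouse 1 and the 6 mice alone 0, and leaving out each mouse gave 182 to 910. At 5000 genes X170224 could not be fitted, since 1 nucleus was left. The difference in the share of nuclei kept was −42.4 to −20.1 percentage points when each mouse was left out, 0.0 at 3000 genes and −19.7 at 5000. The difference in genes per nucleus was −974 to 19.8 (above 0 without mouse 17) and −1526 when any expected count was enough. At 3000 genes the log2 fold change against 4 h turned to 0.21 for AW209491 and 0.23 for Kcnv1 (0.65 with 6 nuclei per mouse), and that between the batches turned to 0.63 for Adrm1, 0.26 for Sbds, 0.41 for Kcns2, 0.49 for Kcnv1 and 0.43 for Cacna1h. The cause was not tested. On simulated counts with a dispersion of 0.1 in place of the 1.89 seen, the same test found 77% and 96% of genes given log2 changes of 2 and 4.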
